A study of Mus musculus with 12 samples.

Results

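Ribosome footprints of 10 genes for transcription factors of the B lineage were examined in a mouse B cell lymphoma line. The genes were Pax5, Ebf1, Bach2, Foxo1, Ikzf1, Ikzf3, Spib, Irf4, Irf8 and Bcl6. They were taken by Ensembl gene identifier from the 22520 identifiers counted in every library. The line, 19PP, arose in a Rag2-/-γC-/- host that had received bone marrow carrying Cγ1-Cre and Myc/P110*flSTOP alleles, and the cultures were of a subline, 19DN, without the GFP and hCD2 reporters. All groups therefore share this origin. The alleles hold a Myc transgene and P110*, an activated form of a PI3K catalytic subunit. They are switched on by a Cre that is active in B cells of the germinal centre reaction. Whether the subline still carried or expressed them was not tested. The cells carried wild-type (WT) RPL12, a protein at the base of the ribosomal stalk also called uL11, or RPL12 with serine 38 replaced by alanine (S38A) or by aspartate (S38D). Alanine cannot be phosphorylated, and the charge of aspartate resembles that of phosphoserine. Each genotype was sampled while asynchronous or as mitotic cells, after 8 hr in 100 ng/mL nocodazole and 10 min in fresh medium. All cells were harvested in cycloheximide, which arrests elongating ribosomes, at 100 µg/mL. This gave 6 groups of 2 libraries, 12 altogether. Whether paired libraries of a group were grown as separate cultures is not stated, and p-values then cover only library-to-library spread, possibly technical. The number of clones behind each genotype is not stated either.

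In B cell development, EBF1 and PAX5 act together with FOXO1 and the Ikaros family to open and hold the B cell programme, and PAX5 keeps the genes of other lineages shut. In mature B cells, BCL6 and BACH2 repress the genes of plasma cell differentiation, SPIB and IRF8 are prominent in the germinal centre, and high IRF4 drives plasma cell differentiation. AKT, the kinase downstream of PI3K, phosphorylates FOXO1 and moves it out of the nucleus. Many sequence-specific transcription factors leave condensed chromosomes in mitosis, and transcription is then largely silent.

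Each library held 258354 to 505500 reads in coding sequence. Levels are given as CPM, counts per 1e6 reads of the tested genes after scaling between libraries by the trimmed mean of M values (TMM). Footprints depend on how much mRNA there is as well as on how often it is translated, so a level is no translation efficiency. Fewer cells of a kind and fewer footprints per cell cannot be told apart in such pooled material, and levels are relative to all genes. Levels are not compared between genes, because no coding length was at hand. All 10 genes were among the 6692 that passed the filter on low counts, although Bach2 reached 10 reads only in 2 asynchronous libraries. Pax5 and Ebf1, which mark the B lineage, had reads in all 12 libraries, at least 22 and 16 in each, while other cell type markers could not be located by name. Per library, 17.95 to 25.8% of uniquely aligned reads lay outside counted features in asynchronous cells and 25.6 to 34.6% in mitotic cells. The part of that shift in the results below was not tested.

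The stretch before the start site is shown for 3 genes, because Spib and Bcl6 had fewer footprints in mitotic cells of every genotype while Irf4 did not. Each sequence is the 250 bases before an annotated start site, 5′ to 3′ on the gene's strand, from RefSeq on GRCm38.p6, the build that mm10 also names. Capitals mark matches to 6 short motifs, searched on both strands: TGGGAA for Ikaros factors, GAGGAA for SPIB, CCCNNGGG for EBF1, GTAAACA for FOXO factors, GAAA, any 2 bases and GAAA for IRF factors and CAGGTG for E2A.
Spib, chr7:44532072-44532321, minus strand: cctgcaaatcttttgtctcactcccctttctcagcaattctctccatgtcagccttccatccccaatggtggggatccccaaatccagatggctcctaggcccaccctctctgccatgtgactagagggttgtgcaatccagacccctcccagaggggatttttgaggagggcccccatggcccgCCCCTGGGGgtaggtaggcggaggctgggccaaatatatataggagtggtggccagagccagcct
Bcl6, chr16:23988853-23989102, minus strand: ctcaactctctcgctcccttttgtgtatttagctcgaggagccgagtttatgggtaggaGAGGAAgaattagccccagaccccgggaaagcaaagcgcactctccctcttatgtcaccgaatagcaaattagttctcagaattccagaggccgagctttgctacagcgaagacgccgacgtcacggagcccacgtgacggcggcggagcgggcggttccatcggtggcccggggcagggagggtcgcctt
Irf4, chr13:30748983-30749232, plus strand: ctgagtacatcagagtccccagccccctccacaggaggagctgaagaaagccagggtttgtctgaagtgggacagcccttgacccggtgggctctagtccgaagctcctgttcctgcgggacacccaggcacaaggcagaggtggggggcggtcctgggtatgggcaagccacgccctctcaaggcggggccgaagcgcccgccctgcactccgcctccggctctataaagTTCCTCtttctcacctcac
The capitals in Spib are 2 overlapping matches to the EBF1 motif, and those in Bcl6 and Irf4 are 1 match each to the SPIB motif, on opposite strands. Another Bcl6 stretch, chr16:23981284-23981533, is not shown and had 0 matches. The table held 13 such stretches for 9 of the 10 genes, with none for Ikzf3. The SPIB motif was in 3 of these 13 (23.1%) and in 23.3% of all 32851 stretches of the table. For the EBF1 motif the shares were 3 of 13 (23.1%) and 11.8%, for Ikaros factors 2 of 13 (15.4%) and 21.6%, for E2A 1 of 13 (7.69%) and 17.2%, and for IRF factors 1 of 13 (7.69%) and 2.98%. The FOXO motif was in 0 of 13 and in 3.17% of all. These letters are descriptions of the sequence and not evidence of binding.

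Mitotic cells were first compared with asynchronous cells. Footprints of 9 of the 10 genes fell in mitotic cells when the change was averaged over genotypes, and Irf4 was the exception. The falls ran from 1.69-fold for Ikzf1 to 2.496-fold for Bcl6, with a larger one for Bach2, a gene of few reads. Of all 6692 genes tested, 20.0% were called lower in this comparison (adjusted p under 0.05, edgeR quasi-likelihood test with Benjamini-Hochberg adjustment). Bach2 entered the tested set through its asynchronous libraries, so its fall is given as a description; the other 9 genes had 8 falls. The median log2 change was -0.99 over the 10 genes and -0.96 without Bach2, beside -0.01 for all genes tested. The share of coding reads that fell on the 10 genes together was 0.283 to 0.356% in the 6 asynchronous libraries and 0.139 to 0.200% in the 6 mitotic ones. These ranges did not overlap, but no such share was computed for other sets of genes. The sum mostly restates the genes with the most reads, Spib, Ikzf3, Bcl6 and Ikzf1 (2128, 2120, 1658 and 1597 reads). Irf4 within it had 334 asynchronous and 398 mitotic reads. Mitotic cells were obtained through nocodazole and its release, so cell cycle state and drug cannot be told apart. The labels carry the same protocol text for every library, and that asynchronous cells had no nocodazole is taken from the group names, not stated outright.

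**Figure D1:**
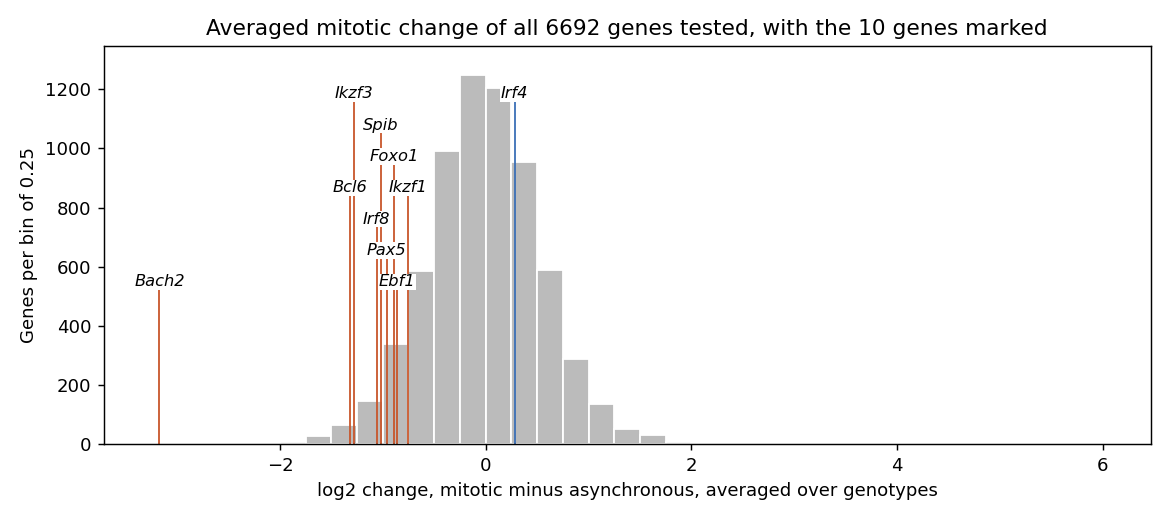
Histogram of the log2 change in footprints, mitotic minus asynchronous and averaged over genotypes, for the 6692 genes tested, in bins of 0.25 (vertical axis, genes per bin). Lines mark the 10 genes: 9 lie between -3.17 and -0.76 and Irf4 lies at 0.28.

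Within single genotypes, 7 of the 10 genes were called lower in WT cells, 8 in S38A cells and 8 in S38D cells, where 9.26%, 9.59% and 10.9% of all genes were called lower. Without Bach2 the count was 7 of 9 in each genotype. Pax5, Foxo1, Ikzf1, Ikzf3, Spib and Bcl6, 6 of the 10, were lower in all 3 genotypes, beside 3.77% of all genes. In these 6, out of the 9 genes other than Bach2, all 6 mitotic libraries lay below all 6 asynchronous ones, which held for 4.81% of all genes. Bach2 showed the same order. In S38A cells DESeq2 called fewer genes, 565 rather than 1246 over all genes in either direction, and 4 of the 10 lower: Pax5, Foxo1 and Ikzf1 lost the call (adjusted p = 0.0563, 0.0570 and 0.0693) and Bach2 had no adjusted p.

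**Figure D2:**
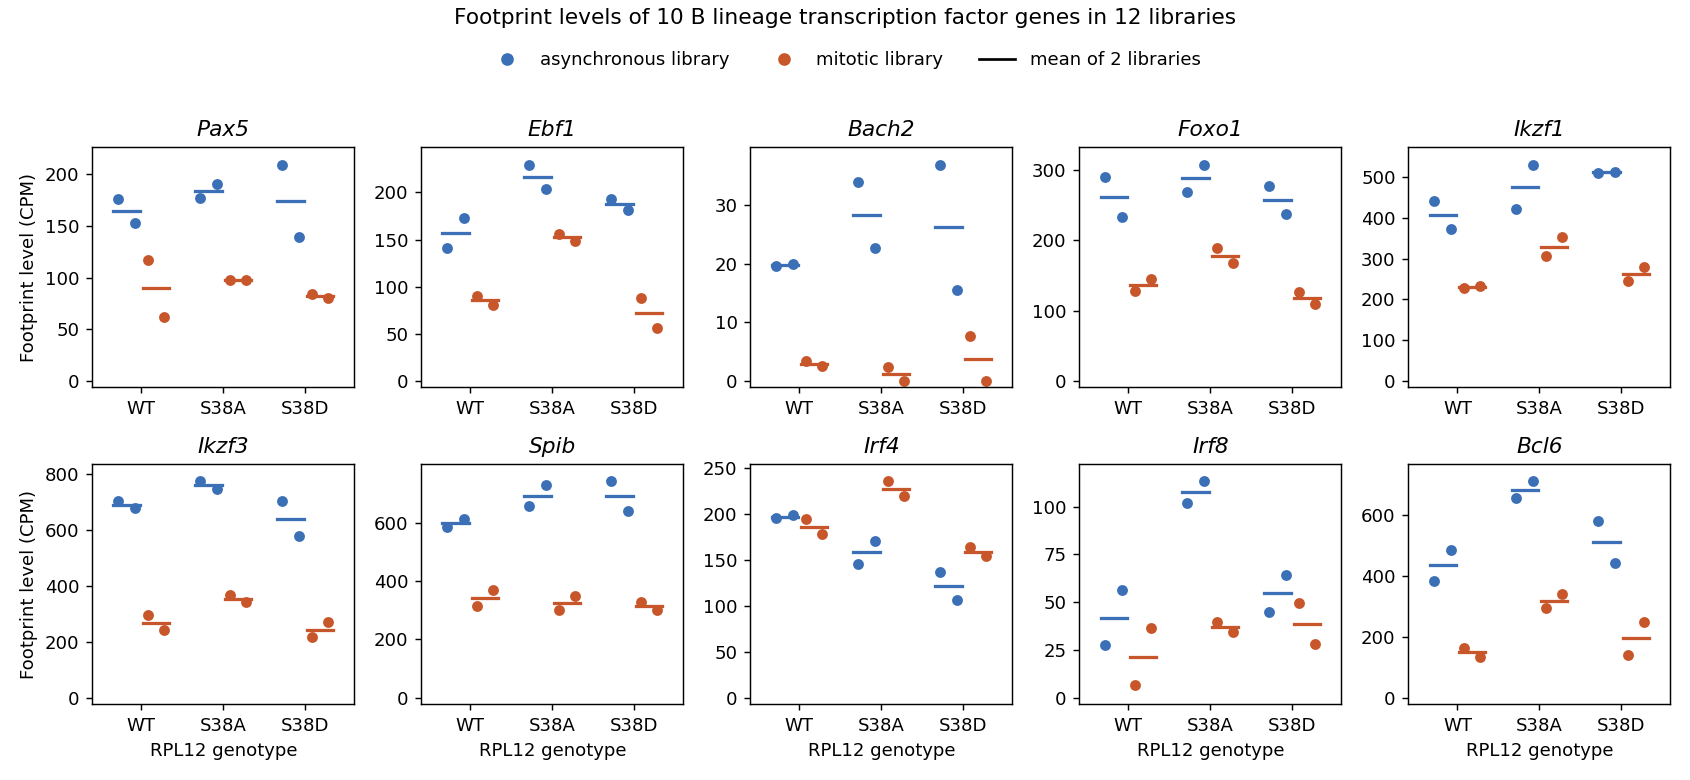
Footprint level in CPM (vertical axis, a separate scale for each gene) of the 10 genes by RPL12 genotype. Points are single libraries, blue for asynchronous and orange for mitotic, and lines are means of 2 libraries; orange lies below blue in every genotype for Pax5, Ebf1, Bach2, Foxo1, Ikzf1, Ikzf3, Spib and Bcl6, while Irf4 and Irf8 differ.

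PAX5 and EBF1 are the factors that commit a progenitor to the B lineage. Pax5 (chr4:44524748-44710694) had 176 and 153 CPM in WT asynchronous libraries and 117 and 62.2 CPM in WT mitotic ones. It went from 177 and 191 to 98.1 and 98.0 CPM in S38A cells and from 209 and 139.5 to 83.9 and 80.7 CPM in S38D cells. All mitotic libraries were thus below all asynchronous ones, and averaging over genotypes gave a log2 change of -0.96 ± 0.15 (SE, edgeR adjusted p = 4.13e-07). The fall within WT cells was less firm: it was -0.91 ± 0.27 (SE, adjusted p = 0.0106, edgeR), -0.51 without WT mitotic replicate 2 (adjusted p = 0.335) and -0.81 without WT asynchronous replicate 1 (adjusted p = 0.0835). It was -1.39 without WT mitotic replicate 1 (adjusted p = 0.00256), and the call was lost under DESeq2 (adjusted p = 0.0590). In S38D cells the call was lost without asynchronous replicate 1 (log2 change -0.75, adjusted p = 0.0749, edgeR).

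Ebf1 (chr11:44618100-45008096) had lower levels in mitotic than in asynchronous libraries of each genotype, which passed the test in WT and S38D cells. In S38A cells it had 229.6 and 204 CPM in asynchronous and 156 and 148 CPM in mitotic libraries, a log2 change of -0.51 ± 0.20 (SE) that did not pass (adjusted p = 0.0674, edgeR). In S38D cells it went from 193 and 182 to 87.8 and 56.1 CPM, a fall of 2.62-fold (log2 change -1.39 ± 0.25, SE, adjusted p = 1.98e-05, edgeR). WT cells lay between, with 141 and 172 against 90.6 and 80.3 CPM and a log2 change of -0.89 ± 0.26 (SE, adjusted p = 0.00918, edgeR). The WT call was lost without WT asynchronous replicate 2 (adjusted p = 0.145) or WT mitotic replicate 2 (adjusted p = 0.0959). The change in S38D minus that in S38A was -0.88 ± 0.33 in log2 units (SE, unadjusted p = 0.0101), which did not pass across all genes (adjusted p = 0.285, edgeR). Both S38A mitotic libraries lay above the 141 CPM of 1 WT asynchronous library, so the 2 states overlapped when genotypes were pooled. The averaged fall was -0.86 ± 0.14 (SE, adjusted p = 1.74e-06, edgeR).

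FOXO1 switches on early B cell genes, among them those of receptor recombination, and BACH2 holds back plasma cell differentiation. Foxo1 (chr3:52268337-52350109) fell from 289 and 232 to 127 and 145 CPM in WT cells, from 269 and 307 to 189 and 167 CPM in S38A cells and from 277 and 237 to 126 and 109 CPM in S38D cells. The groups did not overlap, and over genotypes the log2 change came to -0.89 ± 0.12 (SE, adjusted p = 3.35e-08, edgeR). The smallest of the 3 falls, in S38A cells (log2 change -0.68, adjusted p = 0.00573, edgeR), was lost without S38A asynchronous replicate 2 or S38A mitotic replicate 2 (adjusted p = 0.0817 and 0.0863). Bach2 (chr4:32238413-32586109) had 5 and 6 reads in WT, 13 and 7 in S38A and 18 and 7 in S38D asynchronous libraries. The mitotic libraries had 1 and 1, 1 and 0, and 2 and 0 reads. Over all genotypes this was 56 reads against 5, a ratio per coding read of 10.4 with an exact 95% binomial interval of 4.20 to 33.3 that covers counting error only. The ratio was 6.80 (1.48 to 63.1) in WT, 23.0 (3.67 to 951.6) in S38A and 7.37 (1.84 to 64.2) in S38D cells. A fitted log2 change of -3.17 ± 0.53 (SE, edgeR) rests on these reads. The gene passed the filter on low counts only through asynchronous libraries, so a fall was favoured in advance. Neither the intervals nor a p-value allows for that, and the values are descriptions only. In WT cells the change did not pass even so (log2 change -2.62, adjusted p = 0.0541, edgeR). It was -4.19 in S38A and -2.75 in S38D cells. The S38D value was -1.97 without S38D asynchronous replicate 1 and -1.75 without S38D mitotic replicate 2.

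Ikaros (Ikzf1) and Aiolos (Ikzf3) are zinc finger factors of one family, the former active from early progenitors on and the latter mainly in later B cells. Ikzf1 (chr11:11684962-11772930) had 442 and 372 CPM in WT, 423 and 531 CPM in S38A and 511 and 512 CPM in S38D asynchronous libraries. In mitotic libraries it had 228 and 233, 306 and 352, and 244 and 281 CPM in the same order. Its fall was the smallest of the 9, with a log2 change of -0.76 ± 0.11 (SE, edgeR adjusted p = 5.77e-08). In S38A cells alone (log2 change -0.53, adjusted p = 0.0131, edgeR) the call was lost without S38A asynchronous replicate 2 (adjusted p = 0.243) or S38A mitotic replicate 1 (0.179). Ikzf3 (chr11:98464610-98546031) fell from 704 and 680.0 to 295 and 244 CPM in WT cells, from 775 and 747 to 367 and 342 CPM in S38A cells and from 704 and 580.3 to 217 and 270.1 CPM in S38D cells. Over genotypes the log2 change came to -1.28 ± 0.10 (SE, edgeR adjusted p = 1.24e-15), and the gene was called lower in every genotype under all 19 alternatives. The ratio of Ikzf3 to Ikzf1 reads within a library was 1.13 to 1.83 (median 1.50) in asynchronous and 0.891 to 1.29 (median 1.01) in mitotic libraries, so the 2 states overlapped in this ratio.

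SPIB, an ETS factor that pairs with IRF4 and IRF8 on DNA, was among the most firmly measured of the 10, with 2128 reads in all. Spib (chr7:44525995-44532087) had 586 to 741 CPM (median 648) in the 6 asynchronous libraries and 299 to 368 CPM (median 322) in the 6 mitotic ones. The levels in mitotic cells were 342 ± 37.3 CPM in WT, 323 ± 34.0 CPM in S38A and 315 ± 18.7 CPM in S38D libraries (SD, n = 2 each). Over genotypes it changed by -1.02 ± 0.10 in log2 (SE, edgeR adjusted p = 2.01e-12), and it was called lower in each genotype under all 19 alternatives.

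Of the 2 interferon regulatory factors, Irf8 fell on average and no change of Irf4 passed the test. Irf4 (chr13:30749233-30766981) had 195 and 199 CPM in WT asynchronous and 195 and 179 CPM in WT mitotic libraries, a log2 change of -0.09 with a 95% interval of -0.51 to 0.34. In S38A cells it had 146 and 171 CPM against 236 and 219.9 CPM in mitotic libraries, and in S38D cells 137 and 106 CPM against 164 and 154 CPM. Mitotic libraries were therefore above asynchronous ones in both mutants and level with them in WT cells. None of these changes passed: the log2 change was 0.53 ± 0.20 in S38A (SE, adjusted p = 0.0507), 0.38 ± 0.23 in S38D (SE, adjusted p = 0.247) and 0.28 ± 0.13 averaged over genotypes (SE, adjusted p = 0.0792, all edgeR). The averaged change passed without WT asynchronous replicate 2 (adjusted p = 0.0497) or without WT mitotic replicate 2 (0.0437), and that in S38A cells passed under 9 of 19 alternatives (adjusted p from 0.0291 to 0.335). The change in S38A minus that in WT was 0.62 ± 0.29 (SE, unadjusted p = 0.0376, adjusted p = 0.497, edgeR).

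Irf8 (chr8:120736358-120756694) had few reads, between 2 and 39 per library. It fell in S38A cells from 102 and 113 to 39.7 and 34.4 CPM (log2 change -1.51 ± 0.33, SE, adjusted p = 0.000440, edgeR). In WT cells it had 27.4 and 56.4 CPM against 6.71 and 36.3 CPM, and in S38D cells 45.1 and 64.2 CPM against 49.6 and 28.1 CPM, neither of which passed (adjusted p = 0.223 and 0.411, edgeR). The WT replicates differed so much that the WT log2 change was -0.24 without WT mitotic replicate 1, -0.25 without WT asynchronous replicate 2 and -2.65 without WT mitotic replicate 2, where it passed (adjusted p = 0.0252). The averaged fall was -1.06 ± 0.24 (SE, adjusted p = 0.000225, edgeR).

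BCL6 is the repressor that defines germinal centre B cells. Bcl6 (chr16:23965050-23988866) fell from 383 and 484 to 164 and 132 CPM in WT cells, from 655 and 708 to 294 and 339 CPM in S38A cells and from 579 and 443 to 141 and 249 CPM in S38D cells. The states did not overlap, and the log2 changes were -1.57 ± 0.21, -1.11 ± 0.17 and -1.38 ± 0.19 (SE, adjusted p = 1.85e-08, 4.96e-07 and 4.96e-08, edgeR). Of the 10 genes it had the largest averaged fall after Bach2, -1.32 ± 0.12 (SE, adjusted p = 4.41e-14, edgeR).

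**Figure D3:**
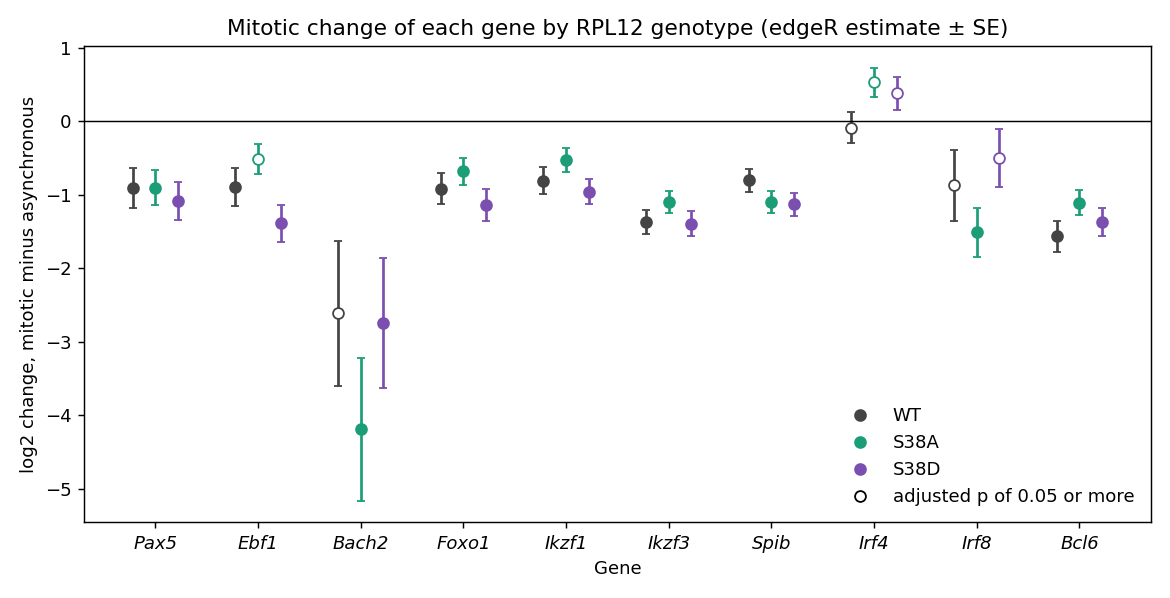
Log2 change in footprints, mitotic minus asynchronous, for each of the 10 genes (horizontal axis) in WT, S38A and S38D cells, as edgeR estimate with bars of 1 SE. Filled points had an adjusted p under 0.05; all 23 of them lie below 0, and the 3 Irf4 points are open and lie between -0.09 and 0.53. Bach2 points are descriptions only.

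Ratios of reads within a library were taken for 5 chosen pairs of the genes. Most set Irf4, the gene that did not fall, against a gene that fell, so a shift between states was partly built in. No share over other pairs of genes was computed. Irf4 reads per Bcl6 read were 0.223 to 0.510 (median 0.241) in the 6 asynchronous libraries and 0.620 to 1.35 (median 0.982) in the 6 mitotic ones. Per Pax5 read they were 0.657 to 1.30 (median 0.861) and 1.66 to 2.875 (median 2.10). Neither range overlapped between states. Spib reads per Irf4 read went the other way, 3 to 6 (median 4.37) in asynchronous and 1.27 to 2.06 (median 1.79) in mitotic libraries. Irf4 reads per Irf8 read overlapped, at 1.44 to 7.14 (median 2.35) and 3.31 to 29 (median 5.72), as did Ikzf3 per Ikzf1 read. These ratios compare reads of genes of different length, so only their shift between libraries can be read. They restate the changes above and were not tested apart from them.

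**Figure D4:**
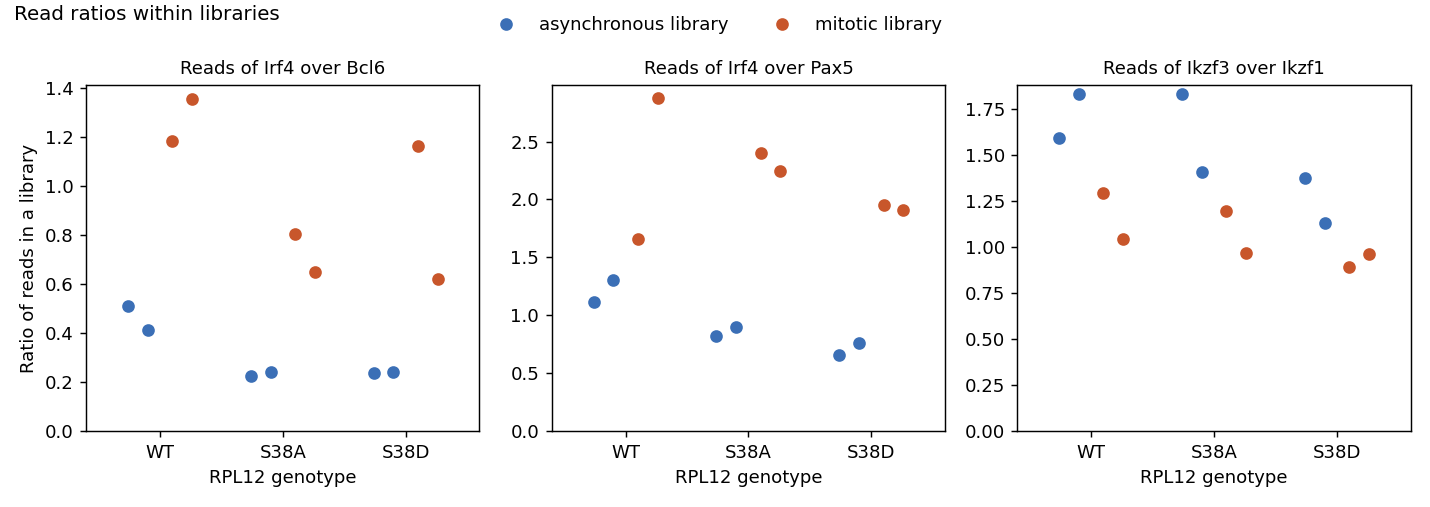
Reads of Irf4 per read of Bcl6, of Irf4 per read of Pax5 and of Ikzf3 per read of Ikzf1 in each library (vertical axes, ratio) by RPL12 genotype, blue for asynchronous and orange for mitotic. The first 2 ratios separate the states, at 0.223 to 0.510 against 0.620 to 1.35 and at 0.657 to 1.30 against 1.66 to 2.875; the third overlaps, at 1.13 to 1.83 against 0.891 to 1.29.

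The next comparison was between genotypes, separately in asynchronous and mitotic libraries. The number of clones behind each genotype is not stated, so the substitution and differences between clones cannot be told apart. Bcl6 exceeded its WT level in S38A cells of both states. Asynchronous S38A libraries had 682 ± 37.98 CPM (SD, n = 2) against 434 ± 71.6 CPM in WT (SD, n = 2), a log2 difference of 0.64 ± 0.17 (SE, adjusted p = 0.00618, edgeR). In mitotic cells the levels were 317 ± 31.7 and 148 ± 22.8 CPM (SD, n = 2 each), 2.15-fold apart (log2 difference 1.10 ± 0.21, SE, adjusted p = 4.83e-05, edgeR). The mitotic call held under all 19 alternatives. The asynchronous one was lost under DESeq2 (adjusted p = 0.0862), without WT asynchronous replicate 1 (0.1355) and without S38A asynchronous replicate 2 (0.0924).

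S38D cells lay between for Bcl6, at 511 ± 95.9 CPM in asynchronous and 195 ± 76.3 CPM in mitotic libraries (SD, n = 2 each). The 6 groups in falling order of Bcl6 were S38A, S38D and WT asynchronous, then S38A, S38D and WT mitotic. Neighbours in that order did not pass in asynchronous cells (S38D minus S38A -0.41 ± 0.15, S38D minus WT 0.23 ± 0.17, SE, adjusted p = 0.0875 and 0.567, edgeR), although the former passed without S38D asynchronous replicate 1 (-0.59, adjusted p = 0.0252), nor did S38D and WT in mitotic cells (0.42 ± 0.24, SE, adjusted p = 0.496, edgeR). Mitotic S38D cells were lower than S38A cells (log2 difference -0.68 ± 0.20, SE, edgeR adjusted p = 0.0166), a value that shifted with single libraries. The call was lost without S38D mitotic replicate 1, where the log2 difference was -0.32. Without S38D mitotic replicate 2 the log2 difference was -1.14. That call was also lost under DESeq2 (adjusted p = 0.0786) and without S38A mitotic replicate 2 (0.171).

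Among asynchronous cells, Bcl6 and Irf8, 2 of the 10 genes, were called higher in S38A than in WT, beside 5.86% of all genes. Among mitotic cells, Bcl6, Ebf1 and Ikzf1, 3 of the 10, were called higher, beside 7.79% of all genes. Irf8 had 107 ± 8.12 CPM in S38A against 41.9 ± 20.5 CPM in asynchronous WT cells (SD, n = 2 each), a log2 difference of 1.31 ± 0.35 (SE, adjusted p = 0.00831, edgeR). Without WT asynchronous replicate 1 it was 0.92 (adjusted p = 0.185), without S38A asynchronous replicate 2 it was 1.20 (0.0707), and DESeq2 gave no adjusted p. Ebf1 had 152 ± 5.72 CPM in S38A and 85.4 ± 7.23 CPM in WT mitotic libraries (SD, n = 2 each), a log2 difference of 0.84 ± 0.24 (SE, adjusted p = 0.0122, edgeR). It was lost under DESeq2 (adjusted p = 0.0846), without WT mitotic replicate 2 (0.147) and without S38A mitotic replicate 1 (0.0956). Ikzf1 passed narrowly, with 329 ± 32.8 against 231 ± 3.65 CPM in mitotic libraries (SD, n = 2 each, log2 difference 0.51 ± 0.18, SE, adjusted p = 0.0454, edgeR). It was lost under 8 of 19 alternatives, among them each of the 4 fits without 1 of these libraries (adjusted p from 0.0776 to 0.278) and the replicate number as a block (0.0531).

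**Figure D5:**
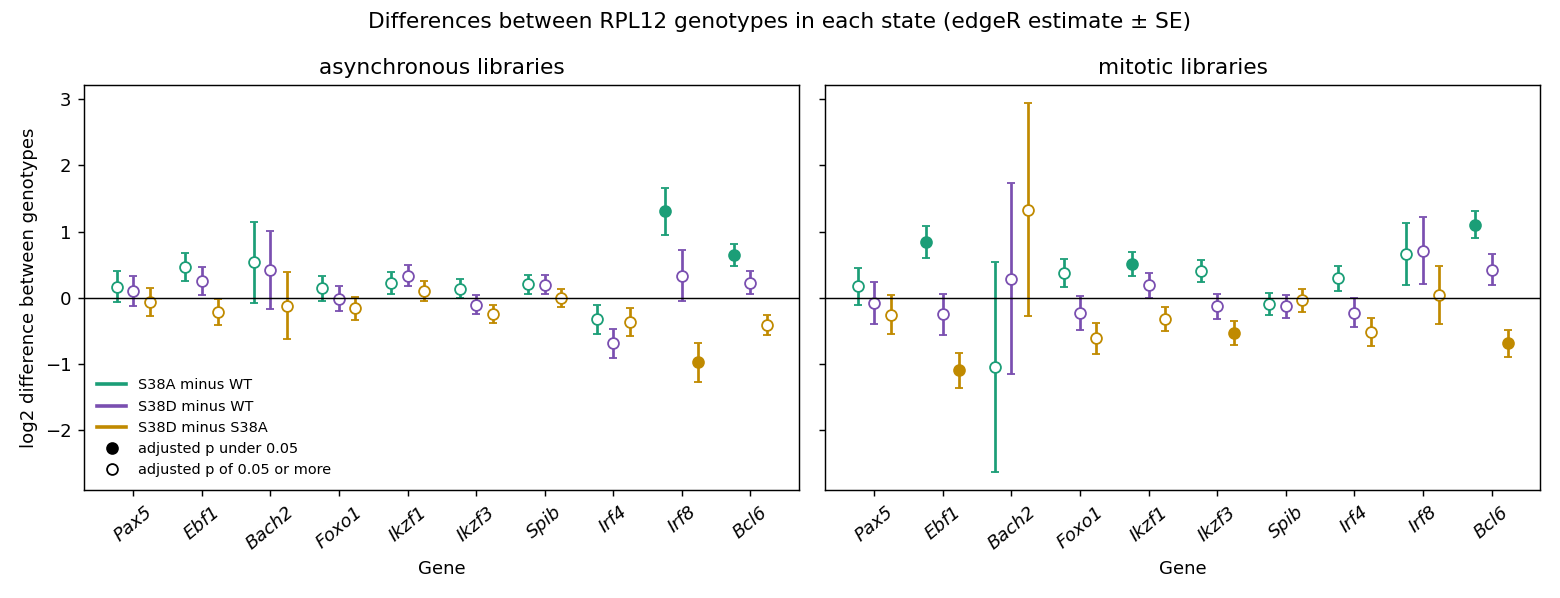
Log2 difference in footprints between genotypes for the 10 genes, in asynchronous (left) and mitotic (right) libraries, as edgeR estimate with bars of 1 SE. Filled points had an adjusted p under 0.05; they are Irf8 and Bcl6 on the left and Ebf1, Ikzf1, Ikzf3 and Bcl6 on the right, and no S38D minus WT point is filled.

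Between the mutants, Irf8 was lower in S38D than in S38A asynchronous cells, with 54.7 ± 13.5 against 107 ± 8.12 CPM (SD, n = 2 each). This log2 difference of -0.97 ± 0.29 (SE, adjusted p = 0.0262, edgeR) was the 1 call among the 10 there, beside 5.01% of all genes called lower, and it was lost without S38A asynchronous replicate 1 (adjusted p = 0.124), S38A asynchronous replicate 2 (0.168) or S38D asynchronous replicate 1 (0.2115). In mitotic cells Ebf1, Ikzf3 and Bcl6 were lower in S38D, 3 of 10 beside 6.77% of all genes. Ebf1 had 71.9 ± 22.4 CPM in S38D and 152 ± 5.72 CPM in S38A libraries (SD, n = 2 each), 2.13-fold apart (adjusted p = 0.00267, edgeR), and the call was lost without S38D mitotic replicate 2 (adjusted p = 0.175). Ikzf3 had 244 ± 37.2 and 354 ± 17.6 CPM (SD, n = 2 each, log2 difference -0.54 ± 0.18, SE, adjusted p = 0.0353, edgeR), and was lost under 8 of 19 alternatives, with an adjusted p of 0.0767 to 0.371 without any 1 of these 4 libraries.

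S38D differed from WT in 0 of the 10 genes in either state by edgeR, beside 3.33% of all genes in asynchronous and 1.82% in mitotic cells. At an unadjusted p under 0.05 the counts were 2 and 0, beside 15.2% and 11.9% of all genes, and DESeq2 called 0 in both, with no adjusted p for 4 of the 10 in each. The nearest was Irf4 in asynchronous cells, at 122 ± 22.02 CPM in S38D against 197 ± 2.52 CPM for WT (SD, n = 2 each), a log2 difference of -0.69 ± 0.22 (SE, adjusted p = 0.0557, edgeR). It passed with DESeq2 size factors (adjusted p = 0.0467), with library totals (0.0401) and without S38D asynchronous replicate 1 (0.0332). A p over the threshold does not show equal levels: the 95% interval of the S38D minus WT difference of Pax5 ran from -0.35 to 0.55 in asynchronous and from -0.70 to 0.54 in mitotic cells. The comparisons of both mutants with WT share the WT libraries.

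Whether the mitotic change itself differed between genotypes was tested as a difference of changes. By edgeR 0 of the 10 genes passed in any of the 3 comparisons, where 0.448% (S38A minus WT), 0.0598% (S38D minus WT) and 0.239% (S38D minus S38A) of all genes did. At an unadjusted p under 0.05 the counts were 1, 0 and 1, namely Irf4 and Ebf1 as given above, beside 9.16%, 6.56% and 10.5% of all genes, and DESeq2 called 0 in each, with no adjusted p for 6 of the 10 in S38A minus WT. On simulated counts a 2-fold difference of changes between S38A and WT was recovered for 5% of changed genes. Those were drawn from all genes tested, so for such a gene this difference would mostly have been missed. That share is not specific to the 10 genes, whose precision varied. The edgeR 95% interval of this log2 difference ran from -0.18 to 0.72 for Ikzf3 and from -0.74 to 0.15 for Spib. It was wider for genes of few reads, -1.86 to 0.58 for Irf8 and -5.08 to 1.92 for Bach2, where such intervals are rough.

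The levels of 8 of the genes went up and down together over the 12 libraries. Irf8 followed them less closely, and Irf4 did not. Pearson's r of log2 CPM with Ikzf3 was 0.95 for Foxo1, 0.94 for Pax5, 0.93 for Bcl6, 0.92 for Spib, 0.90 for Ikzf1 and 0.86 for both Ebf1 and Bach2. It was 0.55 for Irf8 and -0.26 for Irf4. Irf8, a gene of few reads, had r of 0.39 (Pax5) to 0.65 (Bcl6) with the genes other than Irf4. These values describe 12 libraries that fall into 2 states and share their scaling, so they mostly restate the change of state. The genes most like Spib, Ikzf3 and Bcl6 among 6514 others with a mean of at least 20 CPM had r of 0.977 each. The files do not pair their identifiers with names; for Spib it was ENSMUSG00000020788.15 and for Ikzf3 ENSMUSG00000022831.14.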

How the data were processed

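Ribosome-protected fragments of 27 to 30 nt were sequenced from 12 libraries, per the labels' protocols. The authors deposited whole-number read counts per gene for each library. The genome build is mm10, and the tools are HTSeq 0.9.1, STAR 2.5.3a, Bowtie2 2.3.2, DESeq2 1.18.1 and bcl2fastq 2.16.0.10, per the submitters' processing notes; their roles and parameters are not given in the sources used here. The 5 summary lines of each count file stayed out of library sizes and tests; reads aligned to several places were 62.3 to 73.0% of all aligned reads listed, and 0.524 to 0.677% of uniquely aligned reads were ambiguous. A floor of 3 reads was 6.16 to 11.7 CPM. The exact binomial intervals and the read floor cover counting error only. For edgeR, the SE was taken back from the test, as the size of the log2 change divided by the square root of its F statistic. Intervals of edgeR changes and differences rest on this SE, which also takes in spread between libraries. Where reads are few this SE is rough. For Bach2 the SE of the difference of changes was 2.12 in S38D minus WT and 1.75 in S38A minus WT. Yet S38A had the fewest mitotic reads of Bach2.

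Genes were filtered with filterByExpr (minimum count 10) and fitted with edgeR 4.0.16 in R 4.3.3 (TMM, quasi-likelihood test). All 6 groups were in one model, and the averaged change came from an additive model of genotype and state. P-values were two-sided and adjusted over 6692 genes by the Benjamini-Hochberg method, with a threshold of 0.05 in each of 13 comparisons. The named genes are the 10 listed, all of them, together with the genes most like the 3 of them with the most reads. The members and lists were chosen with earlier results of these data known. Other gene lists, 176 symbols in all, were not used because 0 of the identifiers could be named from the reference table; the 10 genes were matched by identifier. Alternatives were DESeq2 size factors, library totals, no filter, a mean of at least 10 CPM, the DESeq2 1.42.0 Wald test, the replicate number as a block, the mean of the 3 genotype changes or only the groups compared, and leaving out each library. On simulated counts for 6692 genes with 200 changed, a 2-fold averaged change was recovered for 86% and a 2-fold WT change for 48% of changed genes. The simulated fits made 132 and 52 calls, against 2604 and 1231 in the data. With more genes called, the adjusted threshold admits larger p-values, so these shares do not carry over to the fits reported. Replicates were checked for identity and none was identical, and chi-square divided by its degrees of freedom was 1.06 to 1.90.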

Additional observations from a re-analysis of the deposited data

How the results depend on the processing

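Alternatives were followed for 58 of the 130 single-gene results: those called or at an unadjusted p under 0.05, and each Irf4 and Irf8 change of state. Of 1094 values with an adjusted p, 1026 kept their direction and their side of the threshold, 46 lost the call, 22 passed newly and 0 reversed. DESeq2 gave no adjusted p for 8 more, of which 4 were called by edgeR: Bach2 in S38A and in S38D cells, and Irf8 in both asynchronous comparisons with S38A. The 9 averaged falls, that of Bach2 as a description only, were called under each alternative run. The DESeq2 Wald test called 4 of the 10 genes rather than 8 in S38A mitotic against asynchronous cells, 0 rather than 2 in S38A minus WT and 0 rather than 1 in S38D minus S38A among asynchronous libraries, and 1 rather than 3 in both of these comparisons among mitotic ones. Its calls over all genes fell too, from 1246 to 565, 624 to 238, 583 to 152, 885 to 350 (S38A minus WT, mitotic) and 864 to 361 (S38D minus S38A, mitotic). In WT cells it called 6 rather than 7, without Pax5, and in S38D cells 7 rather than 8, without Bach2. DESeq2 size factors and library totals each called 1 gene, Irf4, rather than 0 in S38D minus WT asynchronous cells. The counts that follow take both directions. Where the averaged change or that in S38A cells had 1 call more than in the main fit, Irf4 was called higher. Leaving out 1 library gave 9 to 10 calls for the averaged change, 6 to 8 for WT, 6 to 9 for S38A and 6 to 8 for S38D cells. The ranges were 0 to 2 (S38A minus WT), 0 to 1 (S38D minus WT) and 0 to 1 (S38D minus S38A) in asynchronous cells, 1 to 3, 0 to 0 and 1 to 3 in mitotic cells in the same order, and 0 to 0 for each difference of changes. Replicate numbers showed no pairing of the samples in the same order: over 15 pairs of groups the correlation of deviations was -0.24 to 0.09. The lowest values were -0.24 for WT with S38D and -0.16 for S38A with S38D, all asynchronous. A batch shared in another replicate order was not tested, and a replicate block would not cover it. Such values cannot show that no libraries shared a batch. With a replicate block the count in S38A minus WT mitotic cells was 2 rather than 3, since Ikzf1 had an adjusted p of 0.0531, and no other call changed. Depth limits Bach2 and Irf8 most, with 0 to 18 and 2 to 39 reads per library. Levels per length were not computed, since no coding length was at hand.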
